A study of Mus musculus with 6 samples.

Results

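Cholesterol and fatty acid metabolism was followed through 57 genes that make sterols and fatty acids, sense sterols, export them, activate and burn fatty acids, and store fat. The genes were chosen by symbol for their known roles, but with the differences between inhibitor and DMSO of these same libraries already known. Their counts and tests are therefore given as a description of this comparison and support nothing beyond it. Of the 57 genes, 54 were measured among the 11644 genes of the table. Scd1, Hadh and Lpl have no row in it, so their expression is not analysed here. The 54 are 16 sterol synthesis genes, 5 sterol sensing genes, 5 efflux genes, 9 fatty acid synthesis genes, 5 acyl-CoA synthetases, 10 fatty acid oxidation genes and 4 fat storage genes.

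The cells are mouse MLL-ENL/NrasG12D leukemia cells, which carry the fusion oncogene MLL-ENL and an activated Nras in both groups, so every control library carries both lesions. One group of 3 libraries came from cells given 5 µM EPZ015666, an inhibitor of the arginine methyltransferase PRMT5, for 72 h with a second dose on day 2, and the other group of 3 from cells given the solvent DMSO alone. Poly-A RNA was sequenced to between 11335948 and 19197912 reads per library over the genes of the table. The series text calls the replicates independent without saying what was repeated, so the p-values measure the spread between these libraries. The cells are 1 leukemia line in culture, and no normal cells were compared.

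Of 8 genes listed to mark leukemic myeloid cells, 7 were measured, among them Ptprc, the leukocyte antigen CD45 (6899.7 and 6867 normalized counts with DMSO and inhibitor), Spi1 and Kit. With the inhibitor 3 of the 7 were higher and 2 lower, against 23.6% and 22.9% of all genes. The integrin gene Itgam went from 1667 to 6314, Csf3r from 56.99 to 109 and Spi1 from 2148 to 2520.0. The myeloperoxidase gene Mpo went from 847 to 342 and Cebpa from 1269 to 873. Of 9 erythroid markers 0 were measured, and 1 of 5 B cell, 1 of 6 stromal and 1 of 5 adipocyte markers were. DMSO library 2 stood apart from the other DMSO libraries in stress response transcripts and those of the sterol synthesis members. Member results and list counts that turn on it are given with and without it. Without it the 7 leukemic markers had 2 higher and 3 lower. Spi1 then no longer passed (limma adjusted p = 0.0820), and Kit passed as lower (limma adjusted p = 0.00793). Of 7 T cell markers 3 were measured, 2 of them lower with the inhibitor, against 22.9% of all genes. The counts were 1 lower and 1 higher without DMSO library 2. The 3 markers summed to between 264 and 285 normalized counts with DMSO and between 179 and 198 with the inhibitor.

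Cholesterol is built from acetyl-CoA through mevalonate, isoprenoids, squalene and lanosterol. SREBP transcription factors, held in the endoplasmic reticulum by INSIG proteins when sterols are plentiful and carried to the Golgi by SCAP when they are not, turn on the genes of this route and of fatty acid synthesis. Liver X receptors answer to oxysterols and turn on cholesterol efflux genes. Fatty acids are activated by acyl-CoA synthetases, and then either enter mitochondria to be oxidised or are packed into lipid droplets, which myeloid cells form as they take up or store lipid.

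Promoter sequences show what the member genes do and do not share at their start sites. RefSeq promoters on GRCm38.p6, from 250 bases before to 50 bases after the start, were found for 46 of the 57 genes. A sterol regulatory element of the letters TCACNCCAC, searched on both strands, was present in 2 of these 46, Hmgcs1 and Acsl1. It was in 1.24% of all 32851 promoters and in 1.37% of table genes with a promoter. Members and table genes are counted once if any of their promoters matches, whereas the share of all promoters counts each promoter. The CCAAT box (CCAAT, both strands), which binds NF-Y, was present in 27 of the 46 and in 37.4% of all promoters. It was found in 12 of 13 sterol synthesis promoters, 4 of 5 sensing promoters, 4 of 7 fatty acid synthesis promoters, 4 of 5 acyl-CoA synthetase promoters, 1 of 2 fat storage promoters, 2 of 10 fatty acid oxidation promoters and 0 of 4 efflux promoters. The 2 oxidation genes were Cpt1a and Hadh, which has no row in the table. Among table genes with a promoter the CCAAT share was 43.3%. The E-box CACGTG was in 8 of the 46, in 7.15% of all promoters and in 12.02% of those of table genes. The GC box GGGCGG was in 34 of the 46, in 35.7% of all promoters and in 69.0% of those of table genes. The repeats AGGTCA-4 bases-AGGTCA and AGGTCA-1 base-AGGTCA, read by liver X receptors and PPARs, were in 0 of the 46, and in 0.0152% and 0.0396% of all promoters. A match is a description of letters in this window only. The 250 bases before the start are shown 5′ to 3′ for 4 genes: Hmgcs1 from sterol synthesis, Fasn from fatty acid synthesis, Plin2 from fat storage and Acsbg1, which rose from near 0. Hmgcs1 was the only 1 of the 13 sterol synthesis genes with the sterol regulatory element, so its promoter is not typical of them in this. Capitals mark the sterol regulatory element and CCAAT boxes on either strand (ATTGG is the reverse). Hmgcs1 lies at chr13:119690101-119690350 on the plus strand and holds 1 sterol regulatory element and 3 CCAAT boxes. Fasn lies at chr11:120824548-120824797 on the minus strand and holds 3 CCAAT boxes, of which a pair on opposite strands overlap. Plin2 lies at chr4:86670060-86670309 on the minus strand with 1 CCAAT box, and Acsbg1 at chr9:54661886-54662135 on the minus strand with 2.
Hmgcs1: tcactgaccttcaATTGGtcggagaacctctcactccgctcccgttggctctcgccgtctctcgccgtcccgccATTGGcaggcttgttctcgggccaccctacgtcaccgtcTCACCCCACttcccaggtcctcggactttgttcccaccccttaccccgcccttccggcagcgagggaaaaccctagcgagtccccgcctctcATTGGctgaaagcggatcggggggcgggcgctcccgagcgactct
Fasn: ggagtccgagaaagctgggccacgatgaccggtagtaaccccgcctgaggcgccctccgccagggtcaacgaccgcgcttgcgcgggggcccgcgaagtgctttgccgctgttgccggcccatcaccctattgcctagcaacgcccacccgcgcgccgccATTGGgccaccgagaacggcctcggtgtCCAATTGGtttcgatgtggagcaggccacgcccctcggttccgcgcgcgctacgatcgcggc
Plin2: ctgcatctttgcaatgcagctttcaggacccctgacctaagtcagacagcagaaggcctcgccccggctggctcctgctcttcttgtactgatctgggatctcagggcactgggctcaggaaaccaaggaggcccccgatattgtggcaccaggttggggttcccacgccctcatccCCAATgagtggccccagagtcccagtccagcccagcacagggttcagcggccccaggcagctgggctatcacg
Acsbg1: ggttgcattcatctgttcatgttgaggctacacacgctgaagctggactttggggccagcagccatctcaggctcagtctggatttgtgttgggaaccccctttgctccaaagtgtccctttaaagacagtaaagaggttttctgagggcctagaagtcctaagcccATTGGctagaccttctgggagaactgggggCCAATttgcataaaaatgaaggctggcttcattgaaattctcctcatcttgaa

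With the inhibitor, 8 of 9 measured fatty acid synthesis transcripts fell, those of sterol synthesis moved in both directions, and the lipid droplet coat gene Plin2 and the acyl-CoA synthetase gene Acsbg1 rose. Of the 54 genes, 6 were higher and 21 lower at a limma adjusted p under 0.05, and 27 did not pass. Over all 11644 genes, 23.6% were called higher and 22.9% lower; because the genes were picked with this comparison known, nothing is read from the difference. Fatty acid synthesis had 8 of 9 genes lower and 0 higher, with a median log2 fold change of -0.66. Sterol synthesis had 5 of 16 lower and 2 higher, with a median of -0.11. Fatty acid oxidation had 4 of 10 lower and 0 higher, with a median of -0.19. The median over all genes was 0.00, and whether these groups differ from one another was not tested. The 3 inhibitor libraries lay entirely below the 3 DMSO libraries for 25 of the 54 genes and entirely above for 9, against 27.9% and 28.2% of all genes. Fatty acid synthesis had 8 of 9 genes in the first class, sterol synthesis 5 of 16 and oxidation 5 of 10. In RNA from whole cultures, fewer cells of a type and less RNA per cell cannot be told apart.

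**Figure D1:**
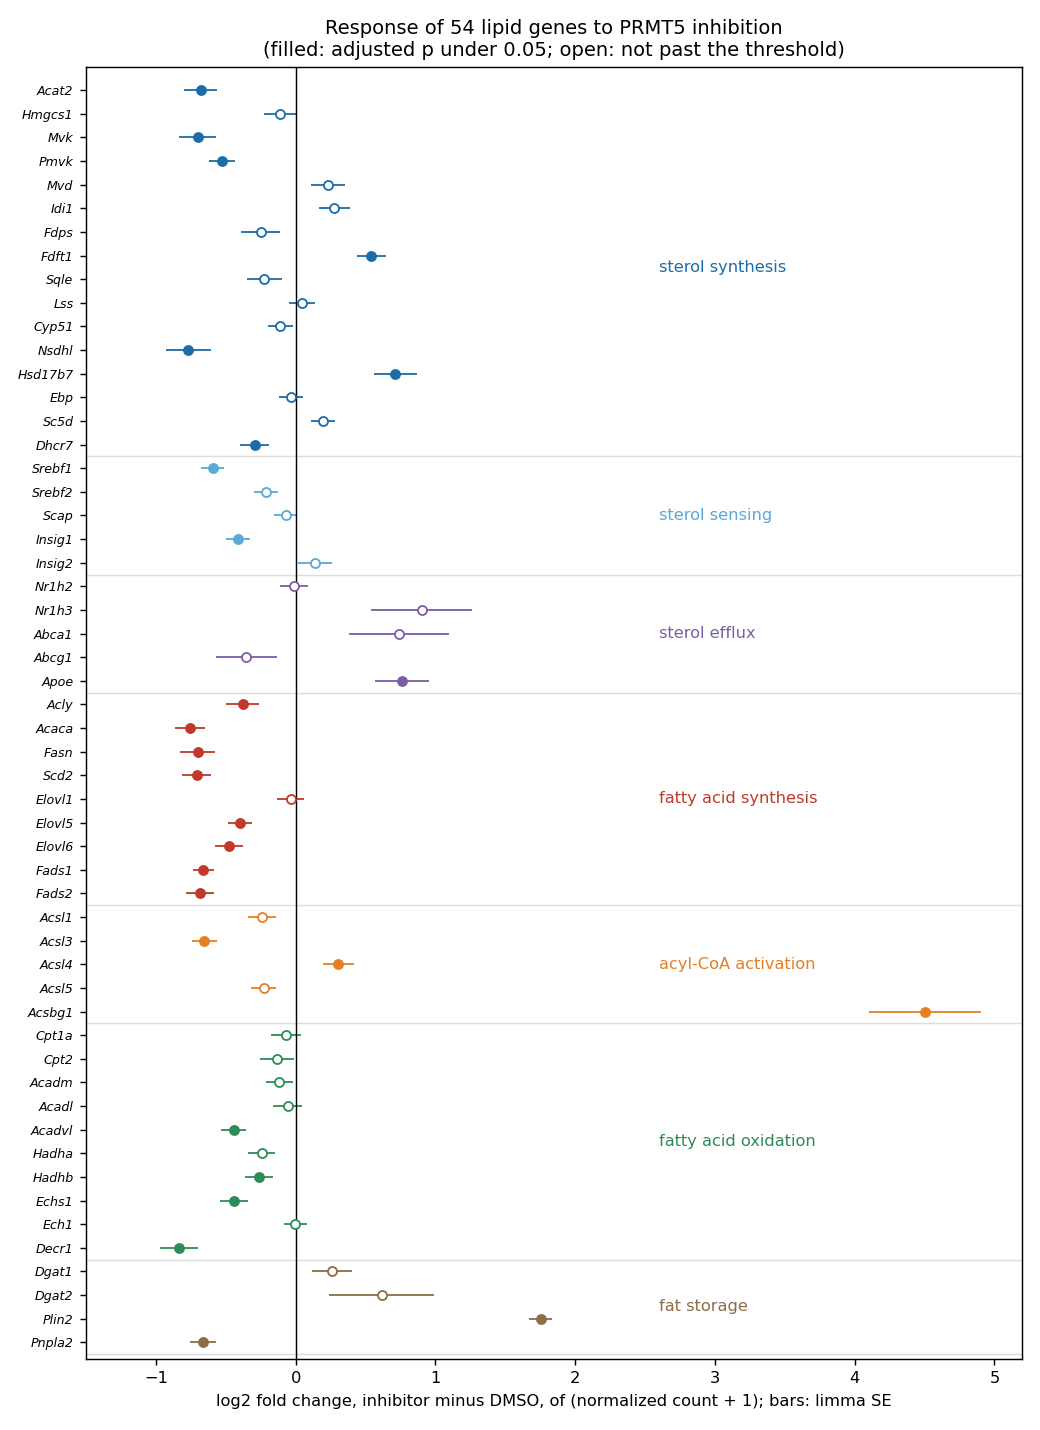
Log2 fold change (inhibitor minus DMSO, x axis, on log2(normalized count + 1)) of each of the 54 measured genes, grouped and coloured by role, with the limma standard error as the bar. Filled points passed an adjusted p of 0.05 and open points did not. Fatty acid synthesis genes lie left of 0 in 8 of 9 cases past the threshold, sterol synthesis genes lie on both sides, and Plin2 and Acsbg1 lie far to the right.

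Per kilobase of exon, the 3 most abundant members in DMSO belonged to fatty acid synthesis. Scd2 stood at 2465 normalized counts per kilobase, Fasn at 1552, Acly at 1527, Acsl5 at 1429 and the sterol gene Fdps at 1193. In all, 18 of the 54 genes share exon positions with another gene in the annotation, 8 of them with a measured gene. Abca1 (1.03), Acsbg1 (1.97), Dgat2 (2.65) and Nr1h3 (3.30) were the least abundant on the same scale.

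Fasn encodes fatty acid synthase, the enzyme that makes palmitate, at chr11:120805846-120824547 on mm10. Fasn stood at 17919.9, 13862 and 19203 normalized counts in DMSO libraries 1, 2 and 3 and at 11112, 10131 and 9872 in inhibitor libraries 1, 2 and 3. Every inhibitor library lay below every DMSO library, and DMSO library 2 was the lowest of its group. Fasn fell from 16995 ± 2788 to 10371 ± 654 (SD, n = 3), 1.64-fold lower, -0.70 ± 0.13 on the log2 scale, limma adjusted p = 8.72e-04. Acaca, acetyl-CoA carboxylase 1, makes the malonyl-CoA that Fasn consumes. Acaca measured 5129, 4176 and 5194 normalized counts in the DMSO libraries and 3196, 2818 and 2559 in the inhibitor libraries. It was 1.69-fold lower, -0.76 ± 0.11 on the log2 scale, limma adjusted p = 1.90e-04, with no overlap. Scd2, a stearoyl-CoA desaturase that introduces the first double bond, lies at chr19:44293674-44306864. Scd2 had 13646, 12193 and 14561 normalized counts with DMSO and 8928, 8326 and 7471 with the inhibitor. Scd2 fell from 13467 ± 1194 to 8241 ± 732 (SD, n = 3), 1.63-fold lower, -0.71 ± 0.11 on the log2 scale, limma adjusted p = 2.41e-04, without overlap.

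The front-end desaturases that make long polyunsaturated fatty acids fell together. Fads1 is the delta-5 desaturase. Fads1 measured 2166, 2197 and 2255 normalized counts in the DMSO libraries and 1434, 1422 and 1329 in the inhibitor libraries. It was 1.58-fold lower, -0.66 ± 0.08 on the log2 scale, limma adjusted p = 3.59e-05. Fads2 is the delta-6 desaturase and its neighbour on chromosome 19. Fads2 had 1117, 938 and 1141 normalized counts with DMSO and 720.1, 650.2 and 611 with the inhibitor. It was 1.61-fold lower, -0.69 ± 0.10 on the log2 scale, limma adjusted p = 2.22e-04, and neither gene's groups overlapped. Of the 3 elongases 2 fell: Elovl6, which extends palmitate, went from 1310.0 to 943 normalized counts (1.39-fold lower, limma adjusted p = 0.00224), and Elovl5, which extends polyunsaturated fatty acids, from 2303 to 1751 (1.32-fold lower, limma adjusted p = 0.00307). Elovl1, which makes very long saturated chains, was the member that did not pass, at 1041 and 1014 (limma adjusted p = 0.780). Acly, which splits citrate to give cytosolic acetyl-CoA, fell from 8059 to 6217 (1.30-fold lower, limma adjusted p = 0.0190), but its adjusted p was 0.0761 without DMSO library 1, 0.0539 without DMSO library 3, 0.0803 without inhibitor library 2 and 0.0660 without inhibitor library 3.

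**Figure D2:**
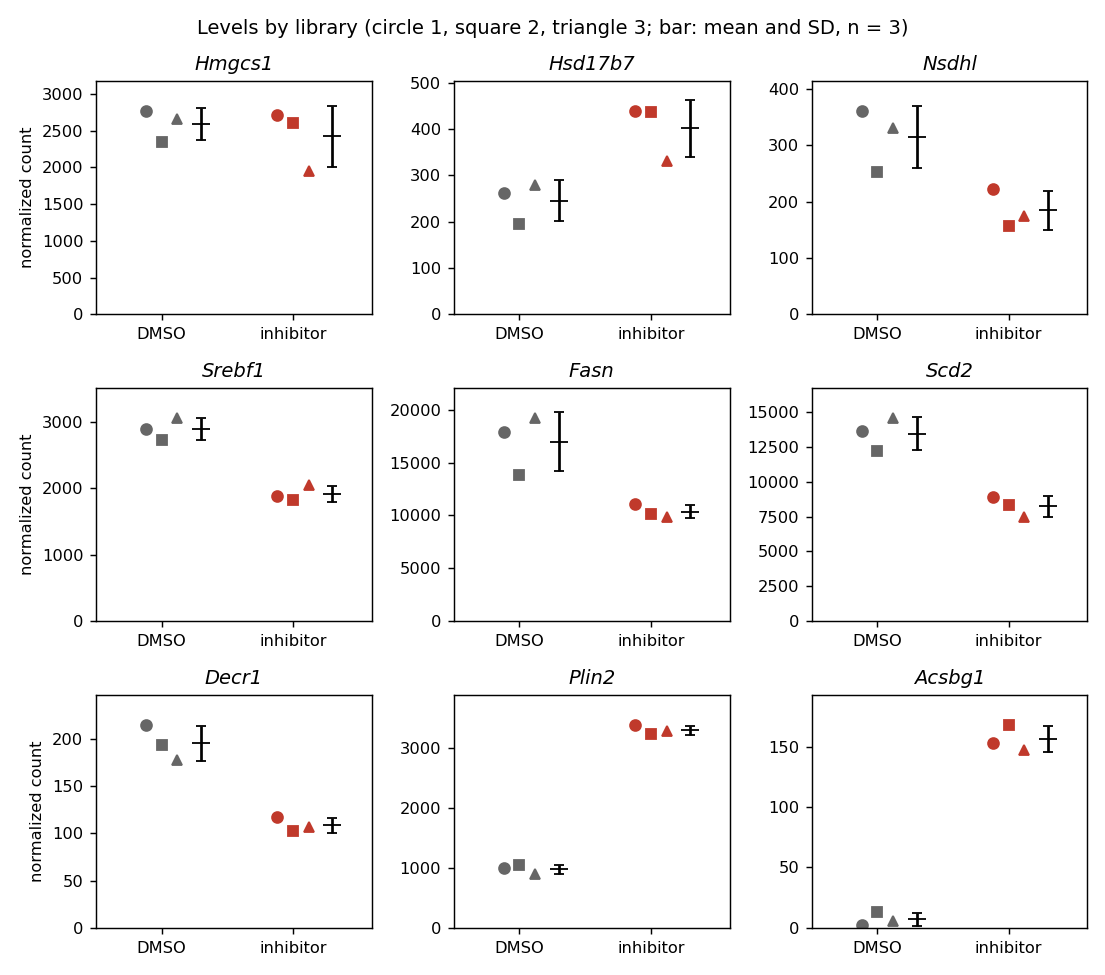
Normalized counts (y axis, from 0) of 9 members in each library, with the mean and SD of each group (n = 3) beside the points. The inhibitor libraries lie below the DMSO libraries for Nsdhl, Srebf1, Fasn, Scd2 and Decr1, above them for Hsd17b7, Plin2 and Acsbg1, and overlap them for Hmgcs1.

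Sterol synthesis did not move as a block. Hmgcs1, the cytosolic HMG-CoA synthase that commits acetoacetyl-CoA to the mevalonate route, lies at chr13:119690379-119708260. Hmgcs1 stood at 2759.8, 2349.9 and 2662 normalized counts in DMSO libraries 1, 2 and 3 and at 2716, 2597 and 1948 in inhibitor libraries 1, 2 and 3. The groups overlapped, and it did not pass (limma adjusted p = 0.479). Acat2, the cytosolic thiolase one step earlier, was different. Acat2 measured 1142, 894 and 1186 normalized counts in the DMSO libraries and 728, 654 and 616 in the inhibitor libraries. It fell from 1074 ± 157 to 666 ± 57.3 (SD, n = 3), 1.61-fold lower, -0.68 ± 0.11 on the log2 scale, limma adjusted p = 5.45e-04. The kinases that act on mevalonate fell as well. Mvk is mevalonate kinase. Mvk had 324, 284 and 332 normalized counts with DMSO and 226, 186 and 168 with the inhibitor. It was 1.62-fold lower, -0.70 ± 0.13 on the log2 scale, limma adjusted p = 0.00115. Pmvk, phosphomevalonate kinase, went from 456 to 316 (1.44-fold lower, limma adjusted p = 7.62e-04). All inhibitor libraries lay below all DMSO libraries for these 3 falling genes.

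Of the 7 genes from Mvd to Cyp51, 1 rose and 0 fell, against 23.6% and 22.9% of all genes. Without DMSO library 2, Fdps and Sqle passed as lower. Mvd, which makes isopentenyl diphosphate, stood at 361 and 423 normalized counts with DMSO and inhibitor (limma adjusted p = 0.147), and Idi1, its isomerase, at 2148 and 2589 (limma adjusted p = 0.0589; 0.0235 without DMSO library 1 and 0.0410 without inhibitor library 3). Fdps, farnesyl diphosphate synthase, stood at 5019.7 and 4192 (limma adjusted p = 0.157), with an adjusted p of 0.00986 without DMSO library 2; 26.7% of its exon bases are shared with the same-strand gene Gm43738. Fdft1, squalene synthase, rose from 608 to 881 (1.45-fold higher, limma adjusted p = 0.00118). Its exons share 18.3% of their bases with the opposite-strand protease gene Ctsb, which went from 7126 to 21731 normalized counts (3.05-fold), and whether the counting used strand is not given in the sources used here. The part of Ctsb reads in the Fdft1 value was not tested. Sqle, squalene epoxidase and a rate-limiting step, lies at chr15:59315077-59331192. Sqle stood at 1407, 1082 and 1332 normalized counts in DMSO libraries 1, 2 and 3 and at 1219.7, 1137 and 918 in inhibitor libraries 1, 2 and 3. The groups overlapped and it did not pass (limma adjusted p = 0.155), but without DMSO library 2 the adjusted p was 0.0264. Lss, lanosterol synthase (1563 and 1613), and Cyp51, lanosterol demethylase (2202 and 2041), did not pass.

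The last steps again went both ways. Nsdhl, a C4 demethylation enzyme on the X chromosome, fell. Nsdhl measured 360.4, 253 and 332 normalized counts in the DMSO libraries and 223, 157 and 174 in the inhibitor libraries. It was 1.71-fold lower, -0.77 ± 0.16 on the log2 scale, limma adjusted p = 0.00238. Hsd17b7, the ketoreductase that follows it, rose. Hsd17b7 had 262, 195 and 279.8 normalized counts with DMSO and 438, 436 and 330.4 with the inhibitor. It was 1.64-fold higher, 0.71 ± 0.15 on the log2 scale, limma adjusted p = 0.00276, so successive enzymes of C4 demethylation moved in opposite directions. Both genes' groups were separate. Ebp, the sterol isomerase (796 and 777), and Sc5d, the C5 desaturase (707 and 810.2, limma adjusted p = 0.0791), did not pass. Dhcr7, which performs the final reduction to cholesterol, fell 1.23-fold (limma adjusted p = 0.0332), a call that was lost on leaving out any library but DMSO library 2. The adjusted p was then 0.120 and 0.125 without DMSO library 1 or 3, and 0.0521, 0.0885 and 0.0705 without inhibitor library 1, 2 or 3.

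**Figure D3:**
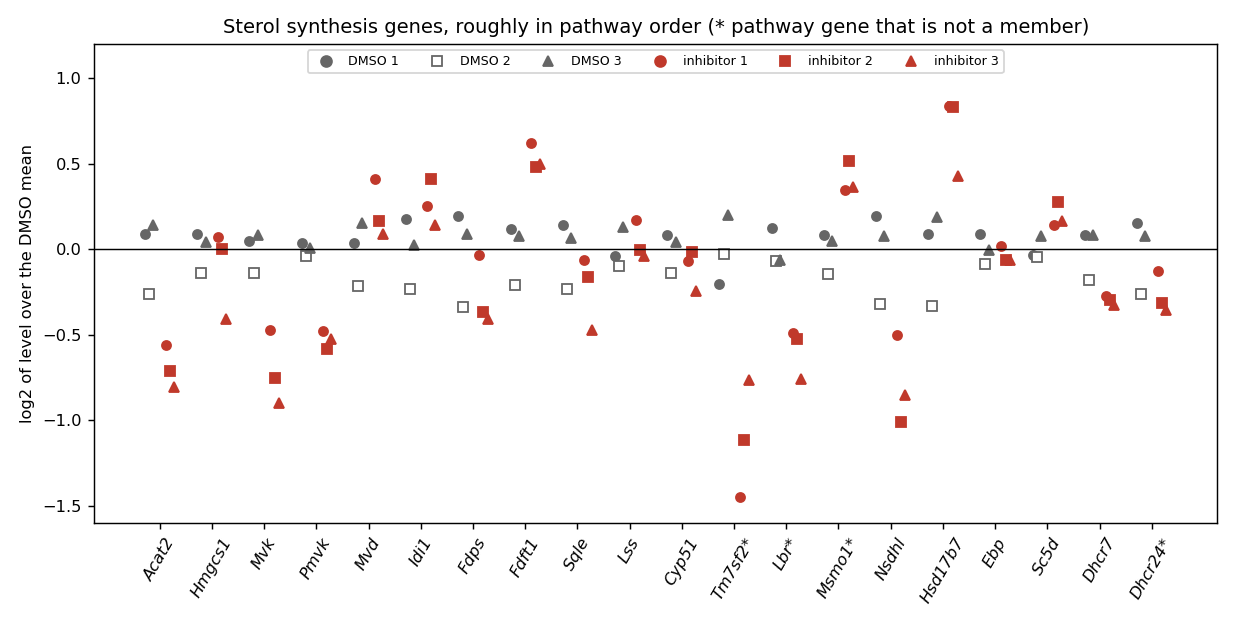
Level of each sterol synthesis gene in each library over the mean of the DMSO libraries (log2, y axis), roughly in pathway order, with genes outside the 57 starred and DMSO library 2 as open squares. Among the members, Acat2, Mvk, Pmvk, Nsdhl and Dhcr7 are lower with the inhibitor and Fdft1 and Hsd17b7 higher, while the other 9 do not pass the threshold; DMSO library 2 is the lowest DMSO point for all 16.

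Of 7 other sterol synthesis genes, all measured, 4 were higher and 2 lower, against 23.6% and 22.9% of all genes. The counts were 4 and 3 without DMSO library 2. Msmo1, the C4 methyl oxidase, rose 1.33-fold (1404 to 1864, limma adjusted p = 0.00270). The C14 reductases fell: Lbr, which is also a lamin receptor, from 9576 to 6381 (limma adjusted p = 6.51e-04) and Tm7sf2 from 143 to 67.3 (limma adjusted p = 7.58e-04).

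DMSO library 2 stood apart for the sterol synthesis members: it was the lowest of the 3 DMSO libraries for 16 of 16, and for 41 of all 54 members, where 37.1% of all genes had DMSO library 2 lowest. It was also the lowest for 8 of 9 fatty acid synthesis genes, but of the 7 other sterol synthesis genes it was the lowest for 4 and the highest for 2, with a median difference of -0.07 on the log2 scale. Its median difference from DMSO libraries 1 and 3 was -0.28 on the log2 scale for the sterol synthesis members, -0.23 for fatty acid synthesis and -0.06 for oxidation. The inhibitor libraries also spread for the sterol synthesis members. Mean log2 levels, centred per gene, were 0.06, -0.05 and -0.17 in inhibitor libraries 1, 2 and 3. They were 0.15, -0.13 and 0.14 in DMSO libraries 1, 2 and 3. Set against DMSO library 2 alone, the sterol synthesis genes had a median difference of 0.04 and all 3 inhibitor libraries were above it for 7 genes and below it for 5, against 37.9% and 37.5% of all genes. Against DMSO libraries 1 and 3 the median was -0.18, with 3 genes above and 8 below, against 33.0% and 31.8% of all genes. Fatty acid synthesis kept its sign in both comparisons, with medians of -0.42 and -0.66 and 8 of 9 genes below in each. Without DMSO library 2, 5 of the 54 members were called higher and 26 lower, against 23.6% and 22.3% of all genes; sterol synthesis then had 2 higher and 7 lower, the added calls being Fdps and Sqle. The same library was the highest of the DMSO libraries for 10 of 10 listed stress response genes, against 34.8% of all genes. These 10 genes summed to 10932, 19160 and 11144 normalized counts in DMSO libraries 1, 2 and 3 and to between 12448 and 13362 with the inhibitor. The part of this in the sterol values was not tested.

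**Figure D4:**
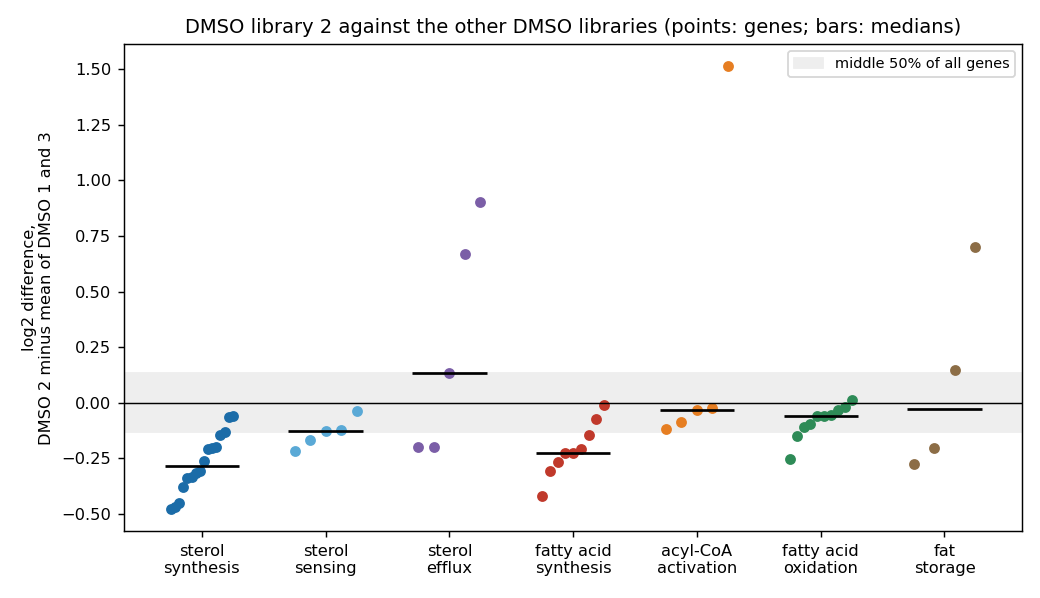
Difference of DMSO library 2 from the mean of DMSO libraries 1 and 3 (log2) for each member by role group, with group medians as bars and the middle of all genes (quartiles -0.13 to 0.14) shaded. All 16 sterol synthesis genes lie below 0, with a median of -0.28 below the shaded range.

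Among the sterol sensors, Srebf1, which encodes SREBP-1 and is the main driver of fatty acid synthesis genes, was lower. Srebf1 stood at 2897, 2732 and 3054 normalized counts in DMSO libraries 1, 2 and 3 and at 1889, 1818 and 2052 in inhibitor libraries 1, 2 and 3. No libraries overlapped, and Srebf1 fell from 2894 ± 161 to 1919.6 ± 120.2 (SD, n = 3), 1.51-fold lower, -0.59 ± 0.08 on the log2 scale, limma adjusted p = 1.49e-04. Srebf2, the SREBP-2 gene that chiefly drives sterol synthesis, was closer. Srebf2 measured 2594, 2419 and 2841 normalized counts in the DMSO libraries and 2349, 2138 and 2279 in the inhibitor libraries. The groups did not overlap. Its log2 fold change was -0.21 ± 0.09 without passing (limma adjusted p = 0.0590), and it passed without DMSO library 2 (adjusted p = 0.0293). Insig1, an endoplasmic reticulum anchor and itself an SREBP target, fell. Insig1 had 3029.7, 2658 and 3149.7 normalized counts with DMSO and 2207, 2233 and 2173 with the inhibitor. The groups were separate, at 1.34-fold lower, -0.41 ± 0.08 on the log2 scale, limma adjusted p = 0.00187. Insig2 (187 and 207) and Scap (1479 and 1408) did not pass. Of 7 other genes of SREBP processing, 0 rose and 2 fell, against 23.6% and 22.9% of all genes. Among the 2 was Rnf139, a ubiquitin ligase (1.23-fold lower, limma adjusted p = 0.0143).

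Of the 5 efflux genes, 1 was called higher (Apoe) and 0 lower, against 23.6% and 22.9% of all genes. Apoe encodes the apolipoprotein E that carries exported cholesterol. Apoe measured 118, 108 and 131 normalized counts in the DMSO libraries and 181, 161 and 282 in the inhibitor libraries. Apoe rose from 119 ± 11.2 to 208 ± 64.9 (SD, n = 3), 1.75-fold higher, 0.76 ± 0.19 on the log2 scale, limma adjusted p = 0.00671, with separate groups. Macrophage markers were mostly higher in the same libraries: 7 of 10 were measured, 6 higher and 1 lower, against 23.6% and 22.9% of all genes. The counts were 5 and 0 without DMSO library 2. The 7 markers summed to between 2406 and 2505 normalized counts with DMSO and between 5625 and 6188 with the inhibitor. Csf1r, the receptor of the macrophage growth factor, went from 1235 to 3912 and was the largest part of these sums in both groups. Mrc1, the marker called lower, went from 18.07 to 8.71. Marco, Mertk and C1qa were the 3 without a row. The part of the macrophage markers in the Apoe value was not tested. The receptor gene Nr1h3, encoding LXR-alpha, was near the detection limit. Nr1h3 had 8.15, 8.88 and 7.85 normalized counts with DMSO and 11.2, 22.4 and 17.2 with the inhibitor. The groups did not overlap, but it rested on 29 reads over the DMSO libraries and 43 over the inhibitor libraries, and did not pass (limma adjusted p = 0.0592; 0.0304 without inhibitor library 1). Nr1h2, LXR-beta, stood at 954 and 946, and the transporter gene Abca1 at 10.7 and 18.5. Abcg1, another exporter, stood at 128, 267 and 158 with DMSO and 134, 141 and 137 with the inhibitor; it did not pass (limma adjusted p = 0.204), and DMSO library 2 was the highest of all 6. Without DMSO library 1 the adjusted p was 0.0386. Of 9 other liver X receptor targets and partners, 6 were measured, with 2 higher and 3 lower, against 23.6% and 22.9% of all genes. The counts were 1 and 3 without DMSO library 2. Abca2, an endolysosomal lipid transporter, fell 2.43-fold (3674 to 1509.8, limma adjusted p = 4.63e-06), and Rxrb, a partner receptor, 1.33-fold (limma adjusted p = 0.00283). Rxra rested on 3 DMSO reads and 18 inhibitor reads.

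Of 18 genes of sterol uptake, transport and esterification, 13 were measured, 6 higher and 3 lower, against 23.6% and 22.9% of all genes. The counts were 6 and 4 without DMSO library 2. Lrp1, a large endocytic receptor, rose 4.23-fold (807 to 3413, limma adjusted p = 2.01e-06), Lipa, the lysosomal acid lipase that frees cholesterol from its esters, 2.10-fold (1689 to 3541, limma adjusted p = 5.03e-06), and Soat1, which makes cholesteryl esters, 1.86-fold (1198 to 2225, limma adjusted p = 1.42e-05).

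Plin2, which encodes the coat protein of lipid droplets, had the smallest p of the members. Plin2 stood at 996, 1045 and 894 normalized counts in DMSO libraries 1, 2 and 3 and at 3378, 3233 and 3274 in inhibitor libraries 1, 2 and 3. The groups lay far apart. Plin2, at chr4:86648386-86670060, rose from 978 ± 76.9 to 3295 ± 74.8 (SD, n = 3), 3.37-fold higher, 1.75 ± 0.08 on the log2 scale, limma adjusted p = 4.55e-08. Pnpla2, adipose triglyceride lipase, which breaks stored fat down, fell. Pnpla2 measured 1308, 1059.9 and 1139 normalized counts in the DMSO libraries and 769, 692 and 746 in the inhibitor libraries. It was 1.59-fold lower, -0.66 ± 0.10 on the log2 scale, limma adjusted p = 1.90e-04, also without overlap. Dgat1, which makes triglyceride, stood at 268 and 324 (limma adjusted p = 0.160; 0.0394 without inhibitor library 1), and Dgat2 at 8.18 and 12.7 normalized counts. Of 24 other storage genes, 17 were measured, 7 higher and 5 lower, against 23.6% and 22.9% of all genes. The counts were 6 and 5 without DMSO library 2. Abhd5, the activator of Pnpla2, rose 2.05-fold (459 to 939.9, limma adjusted p = 4.44e-06), and Plin3, another droplet coat gene, fell 1.96-fold (206 to 105, limma adjusted p = 2.30e-04). Cd36, a fatty acid transporter, had 2 DMSO reads and 61 with the inhibitor. The part of the macrophage markers, whose sums are given with Apoe, in the Plin2, Lrp1, Lipa and Abhd5 values was not tested.

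The acyl-CoA synthetases, which charge fatty acids for use, split. Acsbg1, a synthetase of very long chains, was nearly absent with DMSO. Acsbg1 stood at 2.45, 12.9 and 5.89 normalized counts in DMSO libraries 1, 2 and 3 and at 153, 168 and 147 in inhibitor libraries 1, 2 and 3. It rested on 25 DMSO reads, of which DMSO library 2 held the most, and all inhibitor libraries lay far above. Acsbg1 was 22.0-fold higher, 4.50 ± 0.40 on the log2 scale, limma adjusted p = 5.70e-06, and 37.5-fold higher without DMSO library 2. Acsl3, a synthetase of the endoplasmic reticulum and lipid droplets, fell. Acsl3 measured 1112, 1085 and 1107 normalized counts in the DMSO libraries and 730.4, 748 and 626 in the inhibitor libraries. It was 1.57-fold lower, -0.65 ± 0.09 on the log2 scale, limma adjusted p = 1.34e-04, without overlap. Acsl4, which prefers arachidonate, was 1.25-fold higher (limma adjusted p = 0.0417) with overlapping groups. Its adjusted p was 0.0619, 0.0750 and 0.0861 with DMSO library 1, 2 or 3 left out, and 0.120 and 0.195 with inhibitor library 1 or 2 left out, so the call did not hold. Acsl1 (777 and 659.8, limma adjusted p = 0.0645, and 0.0153 without inhibitor library 1) did not pass. Acsl5 (6951 and 5920.3, limma adjusted p = 0.0529, and 0.0469 without DMSO library 2) did not pass either, but did with DESeq2 (DESeq2 adjusted p = 0.0288).

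In fatty acid oxidation 4 of 10 genes fell and 0 rose, against 22.9% and 23.6% of all genes. Without DMSO library 2, 5 fell and 0 rose. Cpt1a, the carnitine palmitoyltransferase that gates entry into mitochondria, did not pass. Cpt1a stood at 832, 693 and 708 normalized counts in DMSO libraries 1, 2 and 3 and at 792, 679.6 and 655 in inhibitor libraries 1, 2 and 3. Its groups overlapped (limma adjusted p = 0.606). Decr1, the dienoyl-CoA reductase needed for polyunsaturated fatty acids, had the largest fall of the group. Decr1 measured 214, 193 and 178 normalized counts in the DMSO libraries and 117, 102 and 107 in the inhibitor libraries. It was 1.79-fold lower, -0.84 ± 0.13 on the log2 scale, limma adjusted p = 3.97e-04, without overlap. Acadvl, which starts oxidation of very long chains, fell 1.36-fold (818 to 601, limma adjusted p = 0.00157), though 42.9% of its exon bases are shared with the opposite-strand gene Dvl2, which stood at 748 and 780 normalized counts. Echs1, an enoyl-CoA hydratase, fell 1.36-fold (1033 to 761, limma adjusted p = 0.00324). Hadhb, the thiolase subunit of the trifunctional protein, fell from 1924 to 1609 (limma adjusted p = 0.0478) but its adjusted p rose to 0.177 and 0.0560 with DMSO library 1 or 3 left out, and to 0.10 and 0.159 with inhibitor library 2 or 3 left out. Hadha, its partner subunit (2759 and 2337, limma adjusted p = 0.0550; 0.0470 without DMSO library 2 and 0.0158 without inhibitor library 1), Cpt2 (302 and 274), the acyl-CoA dehydrogenases Acadm (1014 and 939) and Acadl (711 and 687), and Ech1 (1151 and 1151) did not pass. Of 28 other oxidation genes, 23 were measured, 5 higher and 6 lower, against 23.6% and 22.9% of all genes. The counts were 6 and 7 without DMSO library 2. The falls with the smallest p were the peroxisomal oxidase Acox3 (1439 to 880.3, limma adjusted p = 1.09e-04) and the thiolase Acaa2 (978 to 629.6, limma adjusted p = 1.98e-04). Next came the peroxisomal enzyme Hsd17b4 (1367 to 914, limma adjusted p = 7.73e-04).

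Fatty acid synthesis genes outside the 57 moved both ways. Of 23 listed, 16 were measured, 6 higher and 5 lower, against 23.6% and 22.9% of all genes. The counts were 5 and 4 without DMSO library 2. With all libraries the median log2 fold change was -0.02. Slc25a1, which exports citrate from mitochondria, fell 2.25-fold (1066 to 474, limma adjusted p = 9.97e-06). Slc27a1, a fatty acid transporter, rose 5.11-fold (144 to 734, limma adjusted p = 1.42e-06), and Hacd2, a dehydratase of chain elongation, 1.96-fold (575 to 1129, limma adjusted p = 4.62e-06).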

How the data were processed

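Poly-A RNA libraries were made with a stranded mRNA kit, per the labels' protocols. Build mm10 and the tools TopHat2 2.0.10, HTSeq 0.6.0, CASAVA 1.8.2 and DESeq 1.16.0 are listed in the submitters' processing notes; annotation and strand setting: not given in the sources used here. The authors deposited a normalized signal: read counts per gene divided by a size factor per library (0.715 to 1.24, worked out from the values). Whole reads were recovered from 100% of values within a tolerance of 1e-06. Groups come from the sample titles. All 11644 genes were fitted on log2(normalized count + 1) by limma-trend (R 4.3.3, limma 3.58.1), two-sided, with Benjamini-Hochberg adjustment over all genes, a threshold of 0.05 and 4 residual degrees of freedom. This scale understates folds of low genes. On the recovered reads, edgeR 4.0.16 called 5412 genes (limma: 2753 higher, 2665 lower); DESeq2 1.42.0 was another alternative. The labels give no batch. Libraries of a group did not agree within sampling noise (chi-square per degree of freedom 9.29 to 20.5), so none was merged. Means carry the SD over 3 libraries. Every measured member is named; full values are given for members called with at least 1.5-fold and, whatever their result, for Srebf1, Srebf2, Insig1, Nr1h3, Hmgcs1, Sqle, Fasn and Cpt1a. From other lists, up to 3 called genes with the smallest p are named; a few listed genes enter the counts only and are not named. The members and lists were chosen with earlier results of these data known. Coordinates and exon lengths come from GENCODE mouse release 21 (mm10), matched by symbol for 54 of 54 members; promoters come from RefSeq.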

Additional observations from a re-analysis of the deposited data

How the results depend on the processing

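Requiring at least 1.5-fold left 12 members lower and 4 higher in place of 21 and 6. Over all 11644 genes the same limit left 1128 lower and 1445 higher, in place of 2665 and 2753. Among the members it left 1 sterol synthesis gene higher and 3 lower, 5 fatty acid synthesis genes lower and 1 oxidation gene lower. The threshold itself is the cause of these smaller counts. Of the 27 called members, 23 were called in every other alternative run (pseudocounts of 0.5 and 5, a mean of at least 100, TMM and upper-quartile factors, edgeR, DESeq2, the replicate block, each library left out, and centring on the median gene, which was added after seeing the data); Acly, Acsl4, Dhcr7 and Hadhb were not, and Acsbg1, below a mean of 100, was not fitted under that filter. No called member changed sign, up to 4 uncalled ones did in a single alternative, and 17 of the 27 uncalled members passed in none. Among the uncalled members, TMM factors brought in Acsl1, Acsl5, Hadha and Srebf2. Upper-quartile factors did so for Acsl5 and Hadha, edgeR for Acsl5, Hadha and Srebf2, and DESeq2 for Acsl5. Leaving out each library in turn gave 18 to 26 members lower and 5 to 7 higher. Over all genes the same runs gave 2067 to 2598 lower and 2078 to 2751 higher. By role they gave 4 to 7 sterol synthesis genes, 7 to 8 fatty acid synthesis genes and 3 to 5 oxidation genes lower. With the replicate block 26 members were lower and 7 higher, with Acsl1, Acsl5, Fdps, Hadha, Idi1 and Srebf2 added. Over all genes the block fit called 2916 lower and 3016 higher. Same-numbered libraries deviated together with correlations of 0.165, 0.0499 and 0.205, and libraries of other numbers with -0.159 to -0.00278. Each library thus correlated best with its own number. The series text does not say what was repeated, so whether the numbers pair libraries is not known. The main fit had no block. Depth limits the genes with few DMSO reads (Acsbg1, Nr1h3, Abca1 and Dgat2).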

Other observations

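Beyond the genes named by rule, the following were chosen after their values were seen. Of the genes of intracellular cholesterol handling, these rose in the inhibitor libraries: Nceh1, a cholesteryl ester hydrolase, from 604 to 1693 normalized counts (limma adjusted p = 4.63e-05), and Npc1, which moves cholesterol out of lysosomes, from 1101 to 1718 (limma adjusted p = 1.90e-04). Scarb1, the HDL receptor, fell from 1508 to 929 (limma adjusted p = 4.82e-05). Soat2, an esterification enzyme, was high in DMSO library 2 alone, at 81.5, 428 and 148 normalized counts in DMSO libraries 1, 2 and 3 and 75.6, 81.1 and 90.4 with the inhibitor, and did not pass (limma adjusted p = 0.0590).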
